A study of Mus musculus with 2 samples.

Results

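Mir151, Mir28a and Mir708 are microRNA genes of the miR-28 family, each lying in an intron of a protein-coding gene: Mir151 in Ptk2, Mir28a in Lpp and Mir708 in Tenm4. They were chosen by name and host gene, through their GENCODE M21 symbols, and matched by Ensembl gene identifier to the tables of counts. No measured value was part of that rule, though earlier results of these data were known when the genes were chosen. All 3 were found among the 2202 microRNA genes counted. The material was gastrocnemius, the large calf muscle, of B6CASTF1/J males aged 2 months, the first-generation cross of C57BL/6J with the wild-derived CAST/EiJ strain. RNA inserts shorter than 30 nt were sequenced in 2 libraries of 1 group, untreated as far as the labels say, which number them as separate biological replicates and give them separate male numbers but the same donor record. In what follows n = 2 counts libraries, and the spread between them may be technical. No second condition was present, so the data give the level of each gene and how far the 2 libraries differ.

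A microRNA is cut from a hairpin in a longer transcript and guides silencing of messenger RNAs that pair with its seed, bases 2 to 8 from its 5′ end. Each hairpin yields an arm from its 5′ side and one from its 3′ side, written 5p and 3p. The hairpins of miR-28, miR-151 and miR-708 are known as descendants of LINE-2, an old family of mammalian retrotransposons of which inverted copies can fold back on each other. Repeat annotation was not used here. In human liver cancer cells miR-151 has been tied to cell migration together with its host, and in mouse muscle stem cells miR-708 has been linked to quiescence. A microRNA in an intron on the strand of its host can be cut from the host's own transcript. Ptk2 encodes focal adhesion kinase, Lpp encodes a LIM domain protein of focal adhesions and Tenm4 encodes a teneurin of the cell surface.

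The mature sequences are shown because the shared seed is what ties Mir28a to Mir708, and because they bear on which reads could be assigned to a single gene. They are from RefSeq on GRCm38.p6, which held mature sequences for 2 of the 3 genes, Mir28a and Mir708, and for their relative Mir28b. Capitals mark the seed.
mmu-miR-28a-5p: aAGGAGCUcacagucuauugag
mmu-miR-708-5p: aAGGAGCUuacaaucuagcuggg
mmu-miR-28b: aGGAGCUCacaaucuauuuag
mmu-miR-28a-3p: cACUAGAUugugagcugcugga
mmu-miR-708-3p: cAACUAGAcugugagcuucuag

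The 5p arms of Mir28a and Mir708 had the same seed, AGGAGCU, and no other of the 1738 mature sequences in the table had it. Over the 22 bases compared without gaps, 16 were identical (72.7%), and the first 8 were identical throughout. Both lie on the plus strand, miR-28a-5p at chr16:24827868-24827889 and miR-708-5p at chr7:96249450-96249472. The differences, counted from the 5′ end of miR-28a-5p with its base first and that of miR-708-5p last, were C9U, G13A, U18G, U19C, G20U and A21G. The mature sequence of Mir28b matched miR-28a-5p at 19 of 21 bases when shifted by 1 base, with the differences G13A and G20U, and its seed was therefore GGAGCUC. The 3p arms were identical at 17 of 21 bases when shifted by 1 base, and their seeds, ACUAGAU and AACUAGA, were each found in 1 mature sequence of the table. The deposited values are counts per gene, so reads of the 5p and the 3p arm cannot be told apart in them.

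All 3 genes lay in introns on the strand of their host, in every spanning protein-coding transcript of GENCODE M21 (mm10). Mir151 (ENSMUSG00000065612.1) occupies chromosome 15, 73254815 to 73254882, on the minus strand, in intron 22 of the 31 introns of the principal Ptk2 transcript, 168309 bases from the start of that transcript. The intron is 14556 bases long, the shortest of the 3 host introns. Mir28a (ENSMUSG00000065494.1) occupies chromosome 16, 24827855 to 24827940, on the plus strand, in intron 8 of 12 of Lpp-201, an intron of 82814 bases. Mir708 (ENSMUSG00000076143.1) occupies chromosome 7, 96249424 to 96249532, on the plus strand, in the first intron of Tenm4, which spans 143365 bases in the principal transcript. It is thus the one nearest to the start of its host, at 10.6% of the length of the Tenm4 gene, against 77.2% for Mir151 in Ptk2 and 72.5% for Mir28a in Lpp. No other microRNA gene lay near: the closest was 56.1 kb from Mir708, 1309 kb from Mir151 and 1717 kb from Mir28a. Mir151 also lies within 1700085D07Rik, an antisense RNA gene on the opposite strand.

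**Figure D1:**
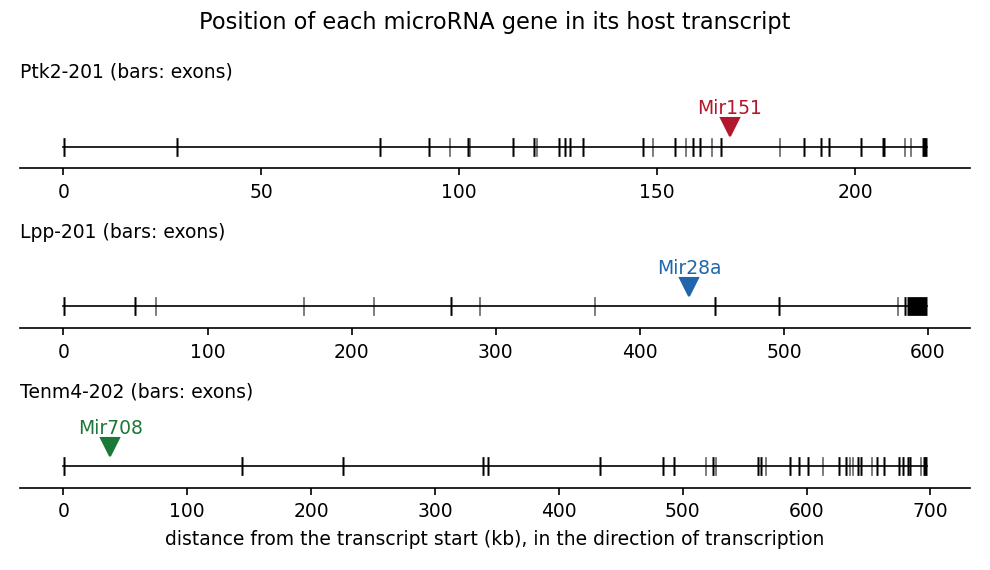
Position of Mir151, Mir28a and Mir708 in the principal transcript of each host gene; the horizontal axis is the distance from the transcript start in kb along the direction of transcription, black bars are exons drawn at a minimum width, and triangles mark the microRNA genes. Mir708 lies in the first intron of Tenm4, 37753 bases from the start of the transcript drawn, which spans 696884 bases. By the length of the whole gene, which is not drawn, Mir708 lies at 10.6% of Tenm4, Mir151 at 77.2% of Ptk2 and Mir28a at 72.5% of Lpp.

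The 2 libraries differed in depth, and also in the share of reads that many genes took, as given below. On the strand of the genes, 2272132 reads were counted in replicate 2 and 638779 in replicate 1, which makes replicate 2 the deeper by 3.56 times. Multi-mapping reads, 74.4% of all reads in replicate 2 and 75.2% in replicate 1, are absent from the gene counts. Values are given as counts per 1000000 counts assigned to microRNA genes in the library (CPM). Of the 9 striated muscle genes listed as markers, 9 were detected at 2 CPM in both libraries, with sums of 52158 CPM in replicate 2 and 22884 CPM in replicate 1. Mir206 alone made up 48078 and 20325 CPM of these sums. Reads that match both Mir1a-1 and Mir1a-2, or both Mir133a-1 and Mir133a-2, are left out. The sums therefore do not give the share of each marker in the muscle. The 6 neural genes, copies of Mir124a and Mir9, were at or near 0, with sums of 0.440 and 0 CPM. Reads that match more than 1 copy are left out, so these sums do not show how much neural RNA was present. Mir122 of liver averaged 22.8 CPM.

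By the reads counted, Mir151 and Mir28a were among the more abundant microRNA genes. Mir708 was far below these 2 but above the median of the detected genes, 93.4 CPM. Because multi-mapping reads are left out, genes with such reads are undercounted, and this order may not be that of the muscle. Mir151 had 13750 counts in replicate 2 and 3571 in replicate 1, or 6052 and 5590 CPM. Its exact Clopper-Pearson 95% intervals, which cover counting error only, were 5951 to 6153 CPM and 5409 to 5776 CPM. They did not overlap, and Mir151 was higher in replicate 2. Mir28a had 6405 counts in replicate 2 and 1874 in replicate 1, or 2819 CPM (2750 to 2889) and 2934 CPM (2803 to 3069). Mir708 had 282 counts in replicate 2 and 83 in replicate 1, or 124 CPM (110.0 to 139) and 130 CPM (103 to 161), where the brackets hold the same kind of interval. For Mir28a and Mir708 the intervals of the 2 libraries overlapped. In bulk tissue, fewer cells of a type and less RNA per cell cannot be told apart, so these levels do not say which cells of the muscle held the microRNAs.

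As means over the libraries, Mir151 reached 5821 ± 326 CPM, Mir28a 2876 ± 81.2 CPM and Mir708 127 ± 4.12 CPM (SD, n = 2 for each). These SDs were 5.60%, 2.82% and 3.24% of the mean. Together the 3 genes held 8995 CPM in replicate 2 and 8654 CPM in replicate 1 (8824 ± 241, SD, n = 2), or 0.899% and 0.865% of the assigned counts. By mean CPM, which leaves out multi-mapping reads, they ranked 26, 35 and 132 of 2202 genes. Ranks were nearly the same in each library. They were 26 and 24 for Mir151 in replicates 2 and 1, 35 in both for Mir28a, and 134 and 133 for Mir708. All 3 were detected, where 13.8% of the 2202 microRNA genes were detected at 2 CPM in both libraries.

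**Figure D2:**
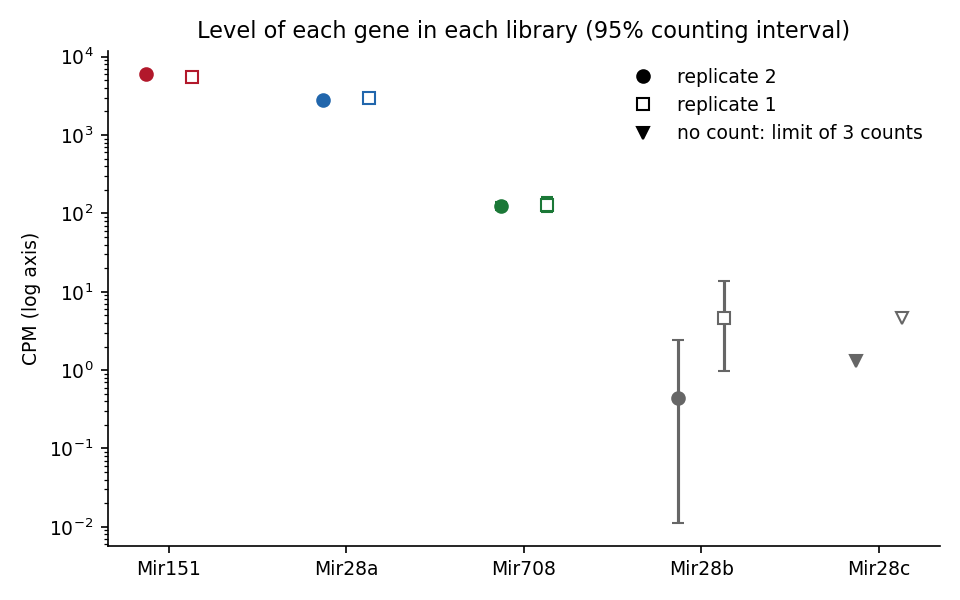
Level of the miR-28 family genes in each library, in CPM on a log axis; filled circles are replicate 2, open squares replicate 1, bars the exact 95% counting interval (hidden by the symbol where shorter than it), and triangles the limit of 3 counts for a gene with no count. Mir151 lies at 6052 and 5590 CPM in replicates 2 and 1, Mir28a at 2819 and 2934 CPM, Mir708 at 124 and 130 CPM, and Mir28b and Mir28c at the bottom of the axis.

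The order Mir151 over Mir28a over Mir708 was the same in both libraries, and each step was far wider than the SD. Within a library, Mir151 had 2.15 times the counts of Mir28a in replicate 2 (exact 95% interval 2.08 to 2.21) and 1.91 times in replicate 1 (1.80 to 2.02). Mir28a had 22.7 times the counts of Mir708 in replicate 2 (20.2 to 25.7) and 22.6 times in replicate 1 (18.1 to 28.5). A read of a microRNA spans the whole mature RNA, so longer genes do not collect more reads. Expressed per base of the annotated gene all the same, the levels were 89.0 and 82.2 CPM per base for Mir151 in replicates 2 and 1, 32.8 and 34.1 for Mir28a, and 1.14 and 1.19 for Mir708, in the same order. Sequence-dependent differences in capture of the ends of small RNAs were not measured here, so ratios between genes are ratios of reads.

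Of the summed counts of the 3 genes, Mir151 gave 67.3% in replicate 2 (66.6 to 67.9%) and 64.6% in replicate 1 (63.3 to 65.9%). Mir28a gave 31.3% (30.7 to 32.0%) and 33.9% (32.7 to 35.2%), and Mir708 gave 1.38% (1.22 to 1.55%) and 1.50% (1.20 to 1.86%), in the same order of libraries. The pair with the shared seed, Mir28a and Mir708, came to 3003 ± 85.3 CPM (SD, n = 2), counting both arms of each. Nearly all of that was Mir28a. Since both counts of a pair come from the same library, comparing the pairs needs no scaling. Over the 3 pairs, the ratio of Mir151 to Mir28a was 1.13-fold higher in replicate 2 (95% interval 1.06 to 1.20, Fisher's exact test, two-sided, Benjamini-Hochberg adjusted over the pairs, p = 0.000717). The ratio of Mir151 to Mir708 differed by 1.13-fold (0.885 to 1.45, adjusted p = 0.491 by the same exact test) and that of Mir28a to Mir708 by 1.01-fold (0.783 to 1.29, adjusted p = 0.949 by the same exact test). These tests compare the reads of 2 libraries and not conditions or mice, and the intervals of the pairs with Mir708 are wide because it had few counts.

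Between the libraries the 3 genes differed little. The CPM of Mir151 was 1.08-fold in replicate 2 over replicate 1 (1.04 to 1.12), with an adjusted p of 0.0001 by the exact two-sided binomial test over all genes. Mir28a stood at 0.961-fold (0.913 to 1.01, adjusted p = 0.242 by the exact binomial test) and Mir708 at 0.955-fold (0.745 to 1.24, adjusted p = 0.887 by the exact binomial test). Thus 1 of 3 passed, higher in replicate 2, all 3 having had the 10 counts needed to be tested. Of the 311 microRNA genes tested, 126 passed (40.5%), 72 of them higher in replicate 2 (23.2% of those tested), so the share for the family, with 3 genes, is near that of all genes. The median log2 ratio of the 3 genes is that of Mir28a, -0.06, beside a median of 0.04 over all genes tested.

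The calls turned on the scaling. With TMM factors, which shift every log2 ratio by -0.06, Mir151 had an adjusted p of 0.106 by the exact binomial test and a log2 ratio of 0.054 in place of 0.11, while Mir28a passed at -0.12 (adjusted p = 0.00675 by the exact binomial test). Under TMM 38.9% of genes passed, 57 of them higher and 64 lower in replicate 2, in place of 72 higher and 54 lower, and with DESeq2 size factors 40.5%, where Mir151 again was the 1 gene of the 3 that passed. With the spread between the libraries counted as noise in edgeR's exact test, 2 of 311 genes and none of the 3 passed, the 3 having unadjusted p-values of 0.843 for Mir151, 0.921 for Mir28a and 0.925 for Mir708. The ratio of Mir151 to Mir28a does not depend on these factors.

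**Figure D3:**
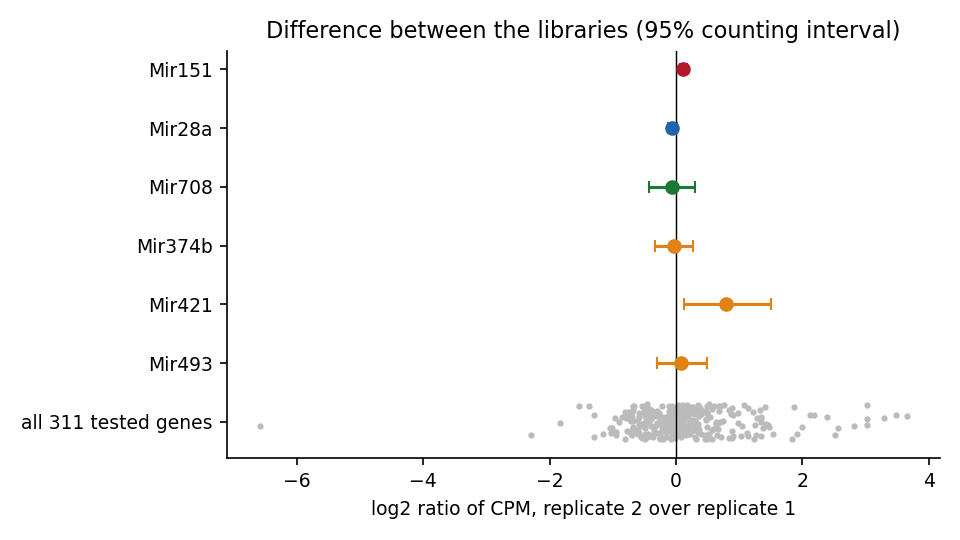
Log2 ratio of CPM in replicate 2 over replicate 1; points with bars are single genes with their 95% counting interval (Mir151, Mir28a, Mir708, and the detected genes of the LINE-2 list), and grey points at the bottom are all 311 tested genes, with a prior count of 0.5 and spread vertically for view. Mir151 lies at 0.11, Mir28a at -0.06 and Mir708 at -0.07, inside the cloud of all genes, and Mir421 lies to the right of them.

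Other features of the 2 libraries moved along with the small difference in Mir151. Replicate 2 was the deeper library. Of the 9 striated muscle markers, 4 passed as higher in replicate 2 (Mir206, Mir486, Mir499 and Mir208b) and none as lower, where 23.2% of all genes tested passed as higher. The other 5, Mir1a-1, Mir1a-2, Mir133a-1, Mir133a-2 and Mir133b, did not pass, 4 of them with log2 ratios below 0. Reads that match more than 1 of these 5 genes are left out, so their ratios rest on the reads that remain. The median log2 ratio of the 9 was 0.04 and carries the same limit. The endothelial marker Mir126a passed as higher, at 129798 CPM in replicate 2 and 81286 CPM in replicate 1. The smooth muscle pair Mir143 and Mir145a summed to 81451 and 123068 CPM, both genes passing as lower in replicate 2. The erythroid pair Mir451a and Mir144 summed to 4688 and 6176 CPM, both genes passing as lower in replicate 2. Of all 311 genes tested, 54 passed as lower. The 4 leukocyte genes summed to 2889 and 2542 CPM, with 2 passing as higher (Mir150 and Mir155), Mir142 as lower, and a median log2 ratio of -0.02. The part of depth or of cell makeup in the ratio of Mir151 was not tested, and with 1 library per replicate none of them can be told apart from the replicate.

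Set beside genes of similar abundance, the 3 genes differed less between the libraries than most of their neighbours, a description with no test. Of the 20 genes nearest to Mir151 in mean CPM, 10 above and 10 below, 14 had a larger absolute log2 ratio than its 0.11, and their median was 0.20. For Mir28a, with an absolute log2 ratio of 0.06, 16 of 20 neighbours had a larger one, with a median of 0.21. For Mir708, with 0.07, 15 of 20 had a larger one, with a median of 0.37. Over all 311 tested genes the median absolute log2 ratio was 0.39. In rank, Mir151 stood between Mir29a (5969 ± 1928 CPM, SD, n = 2) and Mir149 (5797 ± 1337 CPM), whose SDs took in its mean, so those 3 are not ordered beyond their spread. Mir28a stood between Mir744 (3171 ± 1057 CPM), whose SD took in its mean, and Mir130a (2750 ± 2.55 CPM), which was lower by more than either SD. Mir708 stood between Mir107 (128 ± 1.83 CPM) and Mirlet7f-1 (125 ± 3.60 CPM), not ordered beyond their spread either.

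By distance in log2(CPM + 1) over the 2 libraries, the genes most alike were Mir191, Mir10a and Mir149 for Mir151, with distances of 0.18, 0.19 and 0.26. For Mir28a they were Mir130a, Mir335 and Mir145a, with distances of 0.10, 0.30 and 0.47. For Mir708 they were Mir107, Mirlet7f-1 and Mir501, with distances of 0.07, 0.10 and 0.17. Over 2 libraries this measures little more than a similar level.

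**Figure D4:**
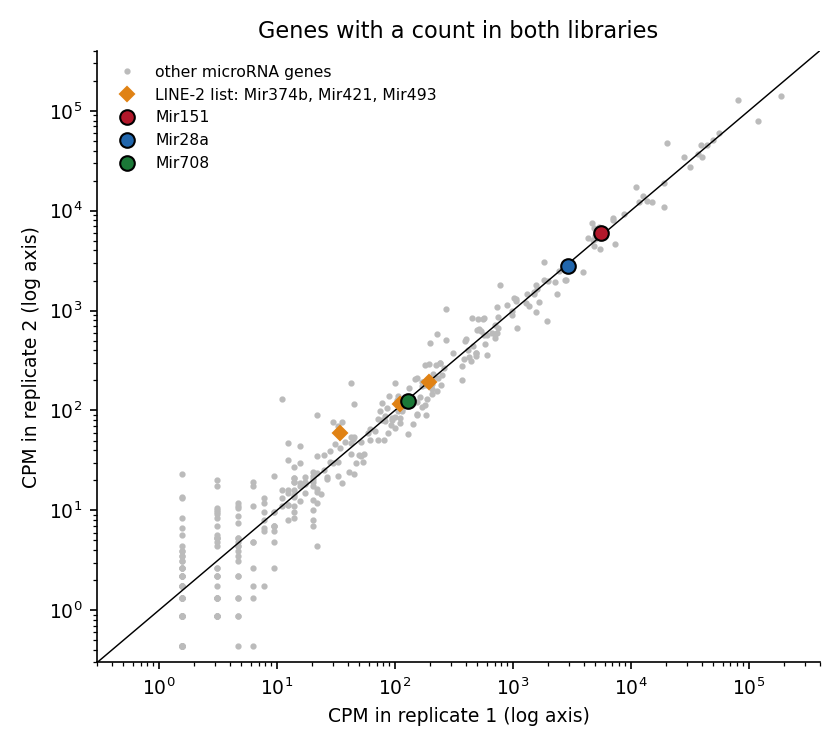
CPM in replicate 2 against CPM in replicate 1 for microRNA genes with a count in both libraries, on log axes; the line marks equal CPM, coloured circles are Mir151, Mir28a and Mir708, and diamonds the detected genes of the LINE-2 list. The 3 circles lie on or next to the line, Mir151 and Mir28a in the upper part of the range and Mir708 in the middle.

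Lying in a coding gene, as the 3 do, was common among microRNA genes. Of the 2202 genes, 969 lie within a protein-coding gene on the same strand, and 14.2% of these were detected, beside 13.8% of all. Among these 969, Mir151 ranked 11, Mir28a 17 and Mir708 59 by mean CPM, and the detected ones had a median of 88.2 CPM. The 3 genes gave 1.62% of the counts of these 969 in replicate 2 and 1.57% in replicate 1. Messenger RNA of Ptk2, Lpp and Tenm4 was not measured in these libraries, so the levels of the microRNAs cannot be set against those of their hosts.

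Reads of close relatives bear on how exact the counts are. The hairpin of Mir28a shares a run of 20 bases with Mir28c, which covers bases 15 to 34 of the gene, while its 5p arm starts at base 14. Mir708 shares 23 bases with Gm23134, another annotated microRNA gene, covering bases 28 to 50, and miR-708-5p, which starts at base 27, differs from that gene at 1 base. Reads of miR-708-5p that lack its first base, or of miR-28a-5p that lack both ends, could match both places exactly. They would then be missing, so Mir28a and Mir708 are read as uncertain. Mir151 shares at most 17 bases, with Mir28c. The 3p arms of Mir28a and Mir708 each differ by at least 4 bases from any other microRNA gene. Copies outside annotated microRNA genes and alleles of the CAST strain were not analysed here.

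The other 2 mouse genes of the name, Mir28b and Mir28c, were scarcely seen. Mir28b on chromosome 8 had 1 count in replicate 2 and 3 in replicate 1, or 0.440 and 4.70 CPM. Mir28c on chromosome 15 had none. At the limit of 3 counts used here for a count of 0, its level could be up to 1.32 CPM in the deeper replicate 2 and 4.70 CPM in the shallower replicate 1, and only for reads that match 1 place. Gm23134 had none either. On the strand opposite to the 3 genes there was 1 count in all, at Mir708 in replicate 2.

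A list of further genes whose human counterparts are known as LINE-2 derived was drawn from background knowledge, without repeat annotation, and may be incomplete. It held 6 names: Mir325, Mir374b, Mir374c, Mir421, Mir493 and Mir545. Of these, 5 were in the tables and 3 were detected, all well below Mir151 and Mir28a. Mir545 was not analysed here. Mir374b, which with Mir421 lies in a cluster on chromosome X, had 434 counts in replicate 2 and 125 in replicate 1, or 191 and 196 CPM. Mir493, of the imprinted Dlk1-Dio3 region on chromosome 12, had 116 CPM in replicate 2 and 110 CPM in replicate 1 (264 and 70 counts). Mir421 had 135 counts and 22 counts, or 59.4 CPM in replicate 2 and 34.4 CPM in replicate 1. Mir325 and Mir374c had no counts. The summed level of the list was 367 CPM in replicate 2, against 340 CPM in replicate 1, and the sum of Mir151, Mir28a and Mir708 was 24.5 and 25.5 times as high.

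Of the 3 detected genes of the list, Mir421 alone passed between the libraries, at 1.73-fold in replicate 2 (1.09 to 2.84, adjusted p = 0.0392 by the exact binomial test), while Mir493 was at 1.06-fold (0.812 to 1.40) and Mir374b at 0.976-fold (0.798 to 1.20). With TMM factors Mir421 no longer passed (adjusted p = 0.0619 by the exact binomial test). That is 1 of 3, beside 40.5% of all genes tested, and the median log2 ratio of the 3 was 0.08. RefSeq held 9 mature sequences for 5 of the listed genes, and none had the seed of an arm of Mir28a or Mir708. Mir708 lay within the range of the listed genes, between Mir374b and Mir493 in both libraries, while Mir151 and Mir28a stood above every listed gene in the tables.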

How the data were processed

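MicroRNA libraries of gastrocnemius, 2 in all, were analysed. Each library came as a table of raw counts for microRNA genes, deposited by the authors, on mm10 with GENCODE M21 as the accompanying notes of the authors state. Aligner and counting tool: not given in the sources used here. Of the 3 count columns, the same-strand one was used, recognised by its larger total. Rows other than genes were left out of totals (unmapped reads, 6.93% in replicate 2 and 5.97% in replicate 1, multi-mapping reads, 74.4 and 75.2%, reads off any gene, 2.48 and 1.62%, and ambiguous reads, 0% in both). CPM divides a count by the column total over gene rows. Detected means 2 CPM in both libraries.

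The 311 genes whose counts summed to at least 10 were compared between replicate 2 and replicate 1 by a conditional binomial test, exact and two-sided, with Benjamini-Hochberg adjustment over all of them and a threshold of 0.05. It sets the libraries against counting error alone and is no test of mice. No model between conditions can be fitted to 1 group. Log2 ratios carry a prior count of 0.5. Intervals are exact at 95% and cover counting error alone, because without molecular identifiers PCR copies of a molecule are counted separately. The deeper replicate 2 gives the narrower ones. The binomial step was tested on simulated data.

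Named genes are the 3 genes, the LINE-2 list, genes sharing a seed with them, and for each the 3 nearest in log2(CPM + 1). Marker genes are named beyond this rule, as are Mir28b, Mir28c, Gm23134, genes adjoining the 3 in rank and genes with the seed letters elsewhere, after their values were seen. The genes and lists were chosen with earlier results of these data known. Hairpin folding was not run. Alternatives were the unstranded column, other denominators, TMM and DESeq2 scaling, other filters and prior counts, edgeR's exact test, and each library left out. Software was Python 3.11.15, pandas 2.3.3, numpy 2.4.6, scipy 1.17.1, matplotlib 3.10.9, R 4.3.3, edgeR 4.0.16 and DESeq2 1.42.0.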

Additional observations from a re-analysis of the deposited data

Results flagged for a closer look

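Among Mir151, Mir28a, Mir708, Mir28b, Mir28c and the LINE-2 list, 1 gene had reads in the column of the opposite strand above the limit of 3 counts that a count of 0 allows. Mir374c, of the LINE-2 list, had no count on its own strand and 434 counts on the opposite strand in replicate 2 and 125 in replicate 1. These equal the same-strand counts of Mir374b, which overlaps Mir374c on the other strand of chromosome X (103573060 to 103573154 for Mir374b, 103573085 to 103573133 for Mir374c, mm10). When strand was ignored both genes had 0 counts. Mir151, Mir28a and Mir708 overlap no microRNA gene on the other strand, and ignoring strand changed their counts by 1 at Mir708 in replicate 2 and not at Mir151 or Mir28a.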

How the results depend on the processing

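Levels in CPM moved with the denominator, because the same counts were divided by another total. With unstranded counts the means were 8313 CPM for Mir151, 4108 for Mir28a and 182 for Mir708. Without the most abundant gene in the total they were 6956, 3443 and 152 CPM, and per 1000000 of all reads they were 970.0, 480.2 and 21.2. With TMM factors Mir151 fell short of the threshold (log2 ratio 0.054) and Mir28a passed it (-0.12), so 1 of 3 passed as before but another gene, and Mir421 was lost. With the exact test of edgeR and 1 dispersion for all genes, which takes the difference between the libraries as noise, the log2 ratio of Mir151 was 0.11 and not called, 2 genes were called in place of 126, and 0 of the 3. There, 20 of 311 genes had an unadjusted p under 0.05. Per base of the annotated gene the ratios of Mir151 to Mir28a, Mir151 to Mir708 and Mir28a to Mir708 were 2.56, 73.6 and 28.7, an alternative chosen after the data were seen. No log2 ratio of Mir151, Mir28a, Mir708, Mir374b, Mir421 or Mir493 changed sign under the alternatives run. Other named genes were not followed there. With the TMM shift of -0.06, a log2 ratio such as that of Mir107 (0.02) turns negative. The gene of the 3 that passed was higher in replicate 2 in the main analysis and lower with TMM. Over all genes the calls turned with TMM to 57 higher and 64 lower, in place of 72 and 54. Of the alternative values, 14 moved beyond the spread, 4 lost the threshold, 1 gained it, and 55 did neither, among them those with each library left out. Unstranded values of Mir374b could not be tested, since it then had 0 counts. The 83 counts of Mir708 in replicate 1 limit its comparisons. No paired analysis was possible because there is 1 group.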

Other observations

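The letters of the seed shared by miR-28a-5p and miR-708-5p, AGGAGCU, were searched on the given strand and at any position. They were found in 9 of 1738 mature mouse sequences in RefSeq (0.518%). Mir151 had no mature sequence there, so it could not be searched. Outside the family, the gene with the highest level among those holding the letters was Mir339, singled out by this search and after its values were seen. In mmu-miR-339-5p the letters start at base 13, outside its seed. Mir339 had 197 counts in replicate 2 and 64 in replicate 1, or 86.7 and 100.2 CPM, which is close to Mir708 at 124 and 130 CPM. In Mir28b they start at base 1. Of the other genes with such a sequence and a row in the tables, Mir3544, Mir6343, Mir7080 and Mir7663 had at most 3 counts in either library.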
